A study of Mus musculus with 96 samples.

Results

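Principal neurons of the lateral superior olive (pLSOs) compare sound level between the ears, and some excite and others inhibit their targets in the midbrain. Among 52 pLSOs with a Patch-seq library, 26 held transcripts of the glutamate transporter gene Slc17a6 and none of the inhibitory genes Slc6a5 and Gad2, while 17 held Slc6a5 or Gad2 and 9 held none of the 3. The first 2 sets, together 43 of the 96 libraries of the series (86 neurons and 10 negative controls), are compared here. They were chosen by these transcript values, at 1 TPM (a transcript's share of the library, scaled to a fixed total) or more, so the 3 genes themselves carry no finding.

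The animals were C57BL/6J mice of both sexes, around hearing onset in the second postnatal week, with no transgene and no treatment. Each neuron was recorded in a brainstem slice, its cytoplasm and nucleus were drawn into the pipette, and the RNA gave 1 library. The submitters named each pLSO by its firing pattern, with 44 Onset neurons, which fired at the start of a current step, and 12 Sustained neurons, which went on firing. The other 30 neurons were lateral olivocochlear neurons (LOCs), which project to the cochlea, and for a negative control a pipette tip was brought to the slice and withdrawn. No label names the animal of a neuron. Each group therefore counts as 1 sample, and all values below describe these neurons without a test. Intervals on shares are exact Clopper-Pearson 95% intervals that cover counting error only.

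An LSO neuron releases glutamate, glycine or GABA according to the transporters and enzymes it makes. Slc17a6 codes for vGLUT2, which loads glutamate into synaptic vesicles, and lies on chromosome 7 (GRCm38, 51622006 to 51671119, plus strand). Slc6a5 codes for GlyT2, the glycine transporter of glycinergic terminals, and lies 1.66 megabases upstream on the same strand (49910146 to 49963856). Gad2 codes for an enzyme that makes GABA and lies on chromosome 2 (22622205 to 22693874, plus strand). Glycine and GABA then share 1 vesicular transporter, VIAAT, the product of Slc32a1. During development, single LSO neurons are known to carry more than 1 of these transmitters.

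Not all neurons of the second set were without the excitatory transcript: 10 of the 17 (58.8%, interval 32.9 to 81.6) also held Slc17a6. Slc32a1 could not tell the sets apart, since it was at 0 TPM in all 17 and in 25 of the 26 others, and also in 29 of 30 LOCs, of which 21 held Gad2. The sets are hence called Slc17a6-only pLSOs and Slc6a5/Gad2 pLSOs, after the rule. The pLSO marker Spp1, which codes for osteopontin, was present in 25 of 26 Slc17a6-only and 17 of 17 Slc6a5/Gad2 neurons, compared with 3 of 30 LOCs and 6 of 10 negative controls, at up to 782 TPM in the latter. The LOC genes Chat and Ucn were at 0 TPM in all 43. The 4 further pLSOs left out of the sets held 0 or 1 TPM of Spp1, and 1 of them held 28 TPM of Ucn, so leaving them out partly fixed these counts.

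The amounts of the 3 chosen transcripts varied widely. Slc17a6 ranged from 1 to 390 TPM in the Slc17a6-only neurons, with a median of 55. In the 10 Slc6a5/Gad2 neurons that also held it, it was listed at 1, 12, 14, 25, 45, 73, 76, 99, 113 and 134 TPM, which lies inside the range of the Slc17a6-only neurons. Gad2 was present in 13 of the 17 neurons at 1 to 68 TPM, Slc6a5 in 7 at 1 to 70 TPM, and both in 3. Seen by combination, 6 neurons held Slc17a6 with Gad2, 2 held Slc17a6 with Slc6a5, 2 held all 3, 4 held Gad2 alone, 2 held Slc6a5 alone and 1 held Slc6a5 with Gad2.

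**Figure D1:**
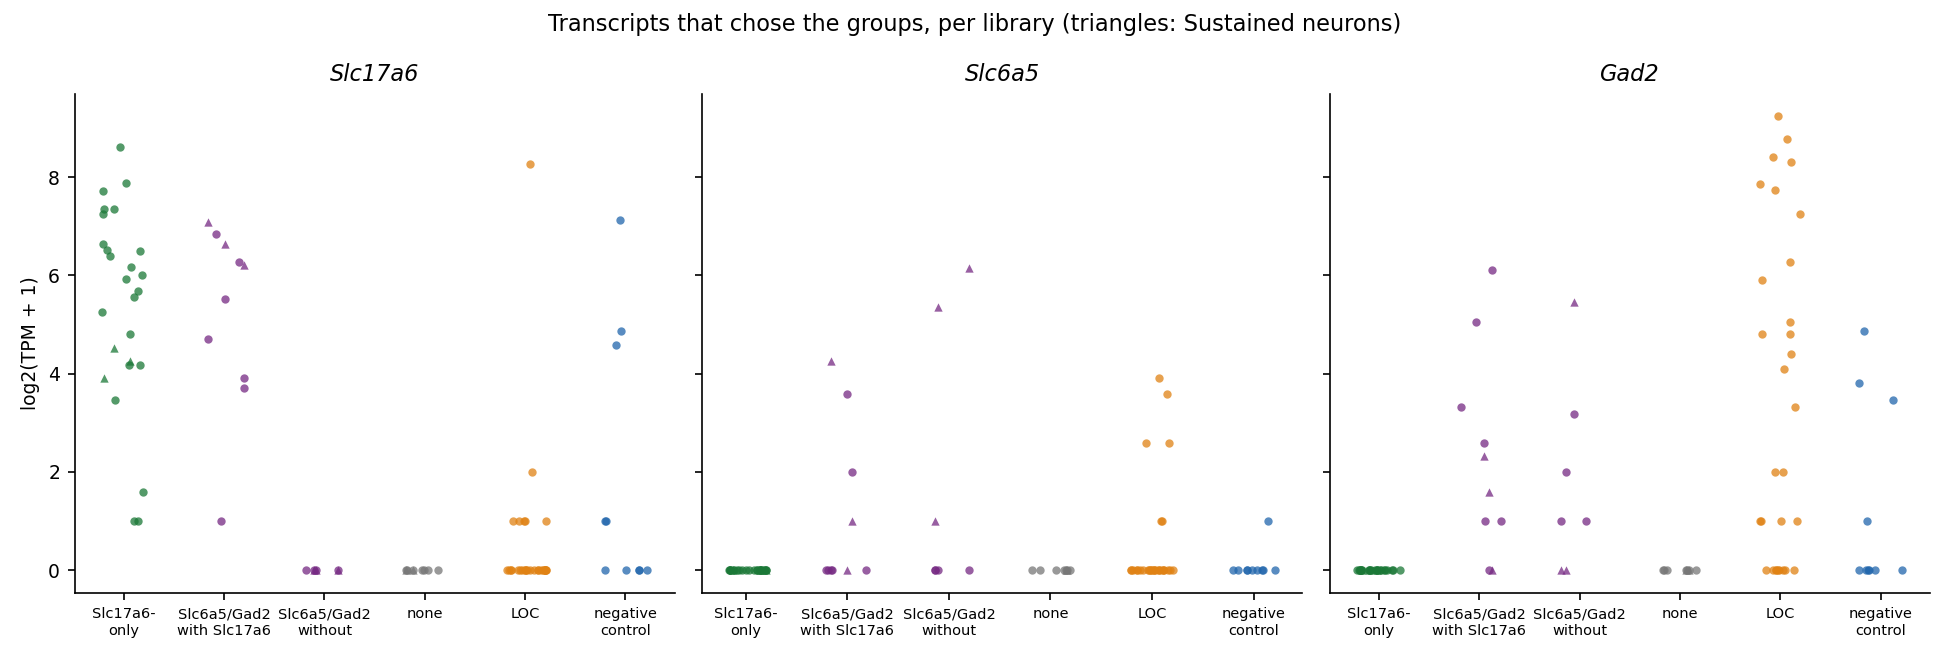
Transcript level of Slc17a6, Slc6a5 and Gad2 as log2(TPM + 1) on the vertical axis for each library, by group on the horizontal axis, with Sustained neurons as triangles. The 10 Slc6a5/Gad2 neurons with Slc17a6 overlap the Slc17a6-only neurons in Slc17a6, and 5 of 10 negative controls also hold this transcript.

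Several neurons sat at the threshold. Of the 17 Slc6a5/Gad2 neurons, 5 held no more than 1 TPM of either gene, and 2 Slc17a6-only neurons held 1 TPM of Slc17a6. The negative controls held these transcripts as well: Slc17a6 was present in 5 of 10 at up to 138 TPM, Gad2 in 4 at up to 28 TPM and Slc6a5 in 1 at 1 TPM. Among neurons, 6 of the 26 with Slc17a6, 5 of the 7 with Slc6a5 and 3 of the 13 with Gad2 exceeded the highest control. The control with 138 TPM of Slc17a6 stood apart, with 3104 detected genes against at most 1271 in the other controls. Without it the highest control held 28 TPM, and 16 of the 26 neurons were above that. Whether material from outside the cell placed neurons in a set was not tested.

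The firing pattern was not used by the rule. Of the 26 Slc17a6-only neurons, 3 were Sustained (11.5%, interval 2.45 to 30.2), compared with 6 of the 17 Slc6a5/Gad2 neurons (35.3%, interval 14.2 to 61.7) and 2 of the 9 with none. Slc6a5 and Gad2 differed in this respect. Slc6a5 was present in 5 of 11 Sustained pLSOs (45.5%, interval 16.7 to 76.6), at 1, 1, 18, 40 and 70 TPM, but in 2 of 41 Onset pLSOs (4.88%, interval 0.596 to 16.5), at 3 and 11 TPM. Gad2 was present in 3 of 11 Sustained (27.3%) and 10 of 41 Onset pLSOs (24.4%). The intervals for Slc6a5 do not overlap, by a narrow margin, but an Onset neuron among the 4 left out held 98 TPM. With those 4 neurons the counts were 3 of 44 Onset (6.82%, interval 1.43 to 18.7) and 5 of 12 Sustained neurons (41.7%, interval 15.2 to 72.3), and the intervals overlap. The intervals for Gad2 and for the 2 sets also overlap. Slc17a6 was present in 6 of 11 Sustained and 30 of 41 Onset pLSOs.

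Because the sets hold different shares of Sustained neurons, each electrophysiological feature was compared over all neurons and again within Onset neurons. Of the 16 features, none had ranges or quartile ranges that lay apart between the sets, in either comparison. The median input resistance was 41.8 MΩ (quartiles 25.7 to 47.5) in Slc17a6-only and 52.2 MΩ (37 to 70.1) in Slc6a5/Gad2 neurons. Within Onset neurons, the medians moved closer, to 40.1 MΩ (n = 23) and 44.3 MΩ (n = 11). The membrane time constant followed the same order, with medians of 3.05 and 4.1 ms over all neurons and 3 and 3.7 ms within Onset neurons. Among Sustained neurons both orders were reversed, with medians of 113.7 (n = 3) and 75 MΩ (n = 6) and of 8.9 and 5.25 ms. Resting membrane potential had medians of -66.5 and -63.5 mV and means of -65.1 ± 4.50 (SD, n = 26) and -64.8 ± 6.81 mV (SD, n = 17), so the means lay closer than the medians.

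The medians of the firing features lay within the spread over neurons. Rheobase, the smallest current that evoked a spike, had medians of 500 pA (quartiles 350 to 550) and 400 pA (300 to 500), and 500 and 450 pA within Onset neurons. The action potential peaked 2.45 ms after current onset at rheobase in Slc17a6-only and 2 ms in Slc6a5/Gad2 neurons, as medians. Its amplitude (96.3 and 96.8 mV) and its halfwidth (0.37 and 0.41 ms) differed by little between the medians. The sag on hyperpolarization, which reflects HCN current, had medians of 7.25 and 9.2 mV over all neurons but 7.1 mV in both sets within Onset neurons.

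Among synaptic features, the decay of spontaneous excitatory currents (sEPSCs) stood out most. Its time constant was 0.731 ± 0.106 ms (SD, n = 25) in Slc17a6-only and 0.813 ± 0.129 ms (SD, n = 15) in Slc6a5/Gad2 neurons, a difference of means of 0.72 SDs. The order was the same within Onset neurons, with medians of 0.73 ms (n = 23) and 0.83 ms (n = 9), but reversed among Sustained neurons, at 0.87 ms (n = 2) and 0.785 ms (n = 6). The ranges still overlapped, from 0.57 to 0.9 ms and from 0.56 to 1.04 ms. Spontaneous inhibitory currents (sIPSCs) decayed with median time constants of 1.345 and 1.565 ms, and 1.33 and 1.47 ms within Onset neurons.

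In the 9 Sustained neurons, 1 of the 16 features (6.25%) had ranges that did not overlap, and 7 had quartile ranges that did not, with 2 or 3 values on the Slc17a6-only side. The 7 were resting potential, input resistance, rheobase, action potential halfwidth, sEPSC amplitude, sIPSC amplitude and sIPSC decay. The sIPSC amplitude was 12.4, 12.5 and 18.5 pA in the 3 Slc17a6-only neurons and 21.7 to 55.1 pA in the 6 Slc6a5/Gad2 neurons, with a median of 31.25 pA. This did not hold for Onset neurons, whose median amplitudes were 28.2 pA (n = 23) and 27.05 pA (n = 10).

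**Figure D2:**
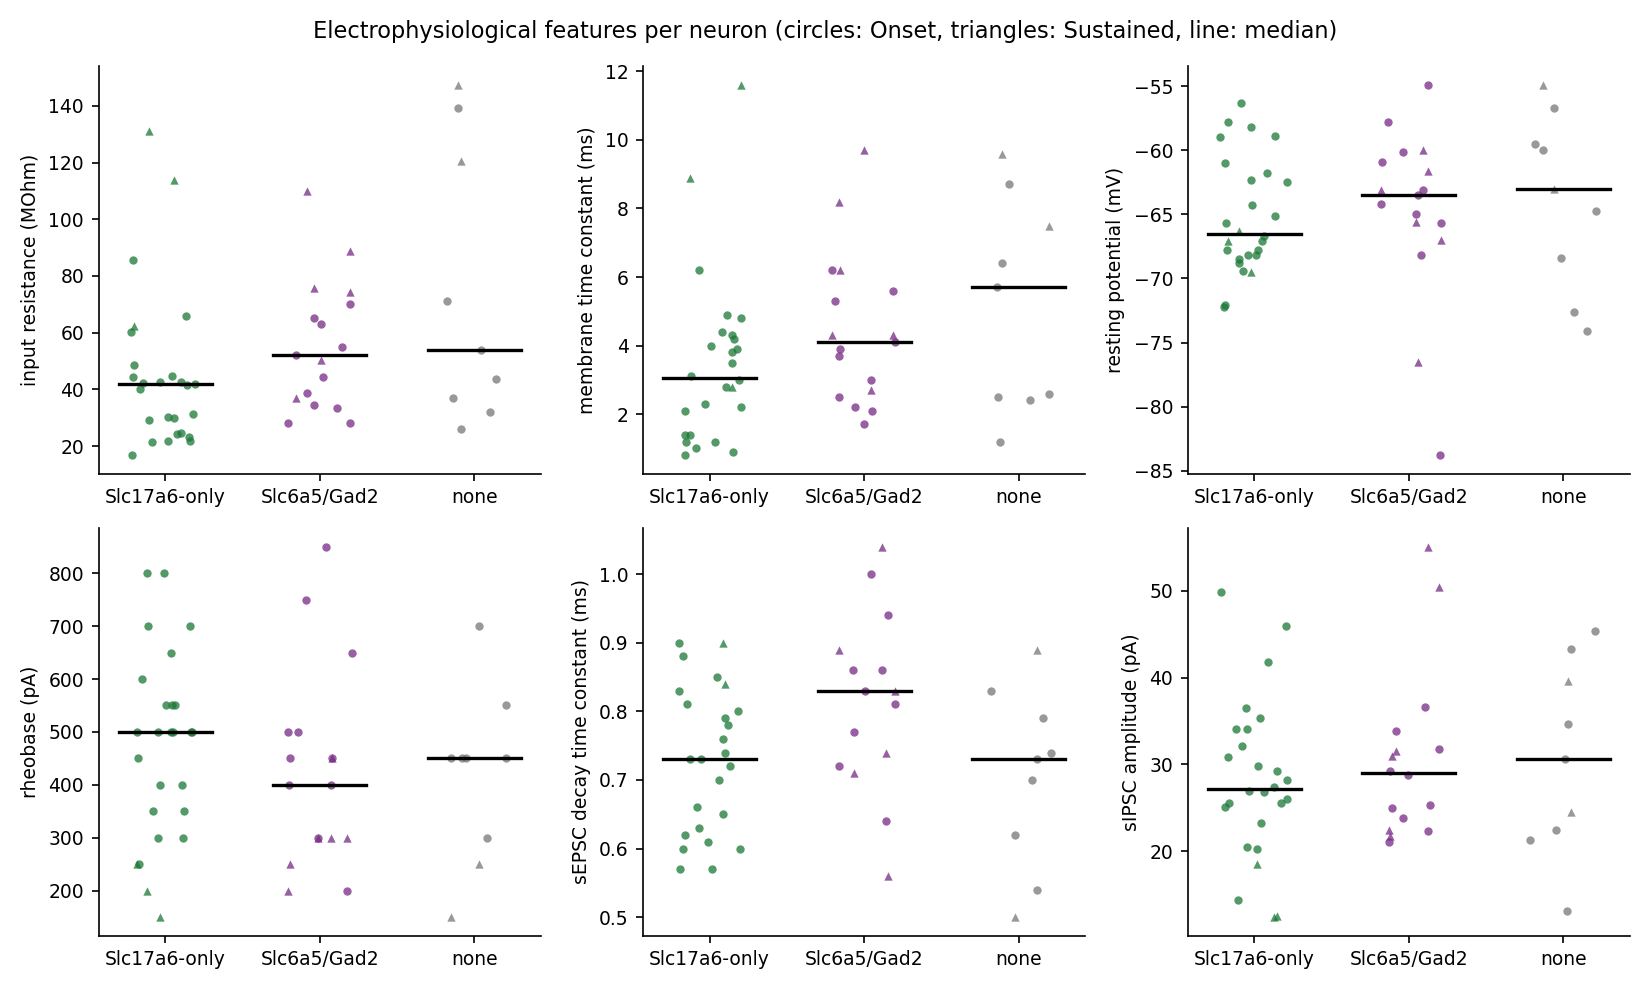
Values of 6 electrophysiological features per neuron, in the units on each vertical axis, for Slc17a6-only, Slc6a5/Gad2 and none-of-the-3 pLSOs, with circles for Onset, triangles for Sustained neurons and a line for the median. The sets overlap in each panel, and the 3 Sustained Slc17a6-only neurons hold sIPSC amplitudes of 12.4 to 18.5 pA.

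For all other genes, the measure was the difference of the mean log2(TPM + 1), Slc17a6-only minus Slc6a5/Gad2. A gene passed the size rule when this difference was 1 or more in either direction, among 7542 genes present at 1 TPM or more in at least 5 of the 43 neurons. By this rule, 514 genes (6.82%) were higher in Slc17a6-only and 655 (8.68%) higher in Slc6a5/Gad2 neurons, and the median over all 7542 genes was -0.04. These counts serve as the background for each gene list. The larger count changed sides without 1 library, a Sustained Slc6a5/Gad2 neuron with 6276 detected genes: it was then 631 against 567. Within Onset neurons it was 859 against 578 of 6399 genes (13.4% and 9.03%).

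Slc17a6-only neurons had a median of 2673.5 detected genes (range 1547 to 4022) and Slc6a5/Gad2 neurons 2896 (1641 to 6276). Gene length differed with the direction. Of the 1877 longest of the tested genes (median span 127901 bases), 4.21% were higher in Slc17a6-only and 10.2% in Slc6a5/Gad2 neurons. Of the 1877 shortest (median 5697 bases) the shares were 7.99% and 7.03%. Per neuron, the number of detected genes among the longest over that among the shortest had medians of 0.83 and 0.95, with ranges of 0.68 to 1.25 and 0.70 to 1.38. The part of gene length in the differences below was not tested.

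The scale of the values changed along the table, which bears on every threshold. Of the tested genes in the first 5000 rows, 49.8% had more than 1 TPM as their lowest value above 0 over all libraries, compared with 9.21% of those in later rows, although their median exonic lengths were similar (4693 and 4958 bases). Genes in the first rows passed the size rule more often, at 13.5% and 17.6% in the 2 directions against 3.25% and 3.96% in later rows. These rows held 34.7% of all tested genes, but from none to all of the genes of a list, so 1 TPM and the size rule do not mean the same for each gene. Whether the gene lengths behind the TPM were those of the genes was not tested.

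Transcription factors of the hindbrain lineages set and maintain the identity of neurons, including their transmitter. Of the 23 tested, 7 were higher in Slc6a5/Gad2 neurons, none was higher in Slc17a6-only neurons, and 16 stayed below the size rule. The 7 make 30.4% of the list, compared with 8.68% of all tested genes, and the 0% on the other side compares with 6.82%. The list's median was -0.35. Of the 23, 9 lay in the first 5000 rows (39.1% against 34.7%). Within Onset neurons, 3 of the 7 (Zfhx3, Nfix and Evx2) were still past the rule. These are 3 of the list's 23 genes, against 9.03% of the 6399 genes tested within Onset neurons, and 13.4% on the Slc17a6-only side. There Rorb passed it on the Slc17a6-only side, at 1.70 against 0.83 over all neurons, so the list was not 1-sided within Onset neurons. Zfhx3, a zinc-finger homeobox factor on chromosome 8 (107942644 to 108961630, plus strand), was the clearest by its share of neurons. It was present in 4 of 26 Slc17a6-only neurons (15.4%, interval 4.36 to 34.9), at 1, 2, 15 and 23 TPM, and in 13 of 17 Slc6a5/Gad2 neurons (76.5%, interval 50.1 to 93.2), at 1 to 18 TPM. The difference was -1.49, and within Onset neurons -1.51, where 4 of 23 and 9 of 11 neurons held it. The intervals of the shares do not overlap, but the ranges of the values do. Zfhx3 was singled out for its large difference in share, and the intervals do not allow for that choice.

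By transcript combination, Zfhx3 was present in 9 of the 10 Slc6a5/Gad2 neurons that also held Slc17a6, in 4 of the 7 without Slc17a6 and in 4 of the 9 pLSOs with none of the 3 genes. It was also present in 7 of 30 LOCs and 2 of 10 negative controls. Its levels were low, with a highest value of 18 TPM in the Slc6a5/Gad2 neurons. At 10 TPM or more, 2 Slc17a6-only and 4 Slc6a5/Gad2 neurons held it. With the rule genes also at 10 TPM or more, its difference was -0.92, below the size rule.

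Of the other factors, 3 belong to the nuclear factor I family, which times neuronal and glial differentiation. Nfix was present in 3 of 26 and 7 of 17 neurons, with a difference of -2.32, and -1.75 within Onset neurons. Nfib (-1.35) was present in 7 neurons of each set, and its mean in Slc6a5/Gad2 neurons was 690 TPM, but 26.4 TPM without the highest one. Nfia (-1.11) was present in 6 and 7 neurons. The homeobox gene Evx2 (-1.65) was present in 1 and 4 neurons, Esrrg (-1.18), an orphan nuclear receptor, in 3 and 5, and Ebf3 (-1.15) in 1 and 5. The intervals of these 6 shares overlapped between the sets. Without the neuron with 6276 detected genes, Ebf3 (-0.92) and Nfia (-0.99) were below the rule.

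Genes of transmitter metabolism gave a mixed picture. Gad1, which codes for the second GABA-making enzyme, was present in 2 of 26 Slc17a6-only and 5 of 17 Slc6a5/Gad2 neurons at no more than 7 TPM. The other vesicular glutamate transporters, Slc17a7 and Slc17a8, were at 0 TPM in all 43. Of the 11 genes tested, 1 was higher in Slc17a6-only neurons, namely Slc38a1 (1.16), a glutamine transporter, and 3 were higher in Slc6a5/Gad2 neurons. These are 9.09% and 27.3% of the list, against 6.82% and 8.68% of all tested genes. The latter included Psat1 (-1.35), an enzyme of serine synthesis, and Slc1a1 (-1.02), a neuronal glutamate transporter. Slc1a1 turned to 1.04 within Onset neurons.

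The other genes of this list described here were below the size rule or in too few neurons to be tested. Slc38a2 (0.70), a further glutamine transporter, came to -0.01 within Onset neurons. Abat (-0.42), which breaks down GABA, Glul (-0.27), which makes glutamine, and the serine and glycine enzymes Phgdh (-0.46) and Shmt2 (-0.58) were below 0. The glial glycine transporter Slc6a9 and the enzymes Gls2 and Shmt1 were present in no more than 2 neurons of either set.

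**Figure D3:**
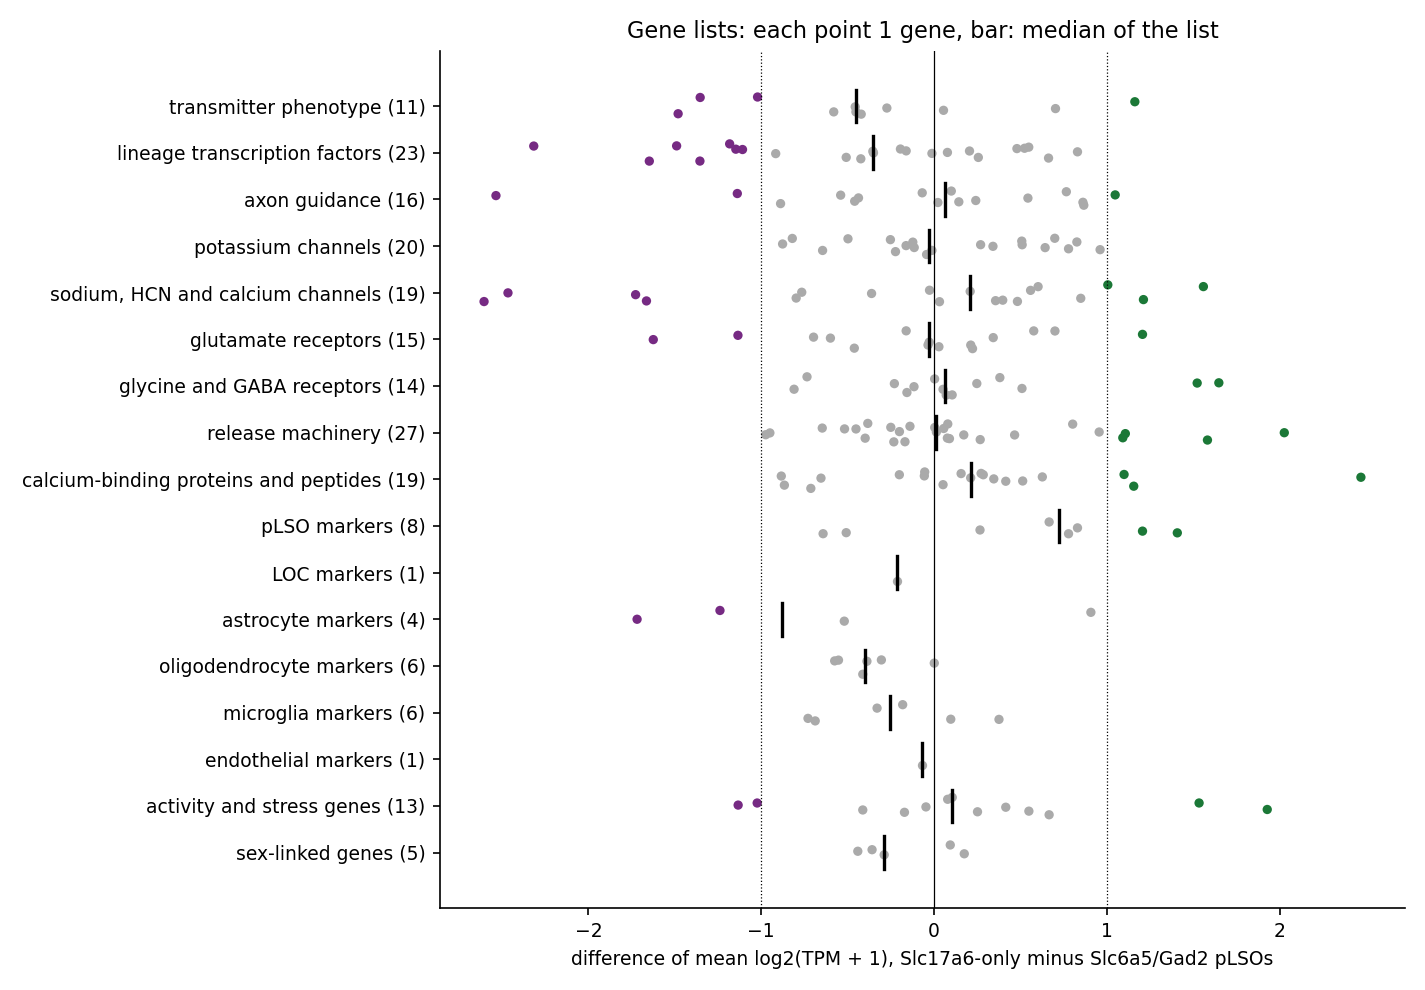
Difference of mean log2(TPM + 1), Slc17a6-only minus Slc6a5/Gad2 pLSOs, on the horizontal axis for each tested gene of the lists on the vertical axis, with the number of genes in brackets, a bar at the median and dotted lines at the size rule. The 7 transcription factors past the rule all lie on the Slc6a5/Gad2 side. None of the 20 potassium channels passes it, against 6.82% and 8.68% of all tested genes.

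Genes of transmitter release act in the terminals of both kinds of neuron. Of 27 tested, 4 were higher in Slc17a6-only neurons and none in Slc6a5/Gad2 neurons, which makes 14.8% of the list against 6.82% of all tested genes, and the median of the list was 0.01. Syp, which codes for the vesicle protein synaptophysin, was present in 22 of 26 neurons (84.6%, interval 65.1 to 95.6) at a median of 28.5 TPM, and in 9 of 17 (52.9%, interval 27.8 to 77) at a median of 1 TPM. The means of log2(TPM + 1) were 4.16 ± 2.31 (SD, n = 26) and 2.14 ± 2.57 (SD, n = 17), a difference of 2.03, and of 1.87 within Onset neurons. Stx1a (1.58), a membrane fusion protein, Rab3a (1.11), a vesicle GTPase, and Syn2 (1.09), which tethers vesicles, were the others. Rab3a was present in 25 of 26 and 15 of 17 neurons, with medians of 80 and 39 TPM. Syn2 came to -0.16 when the Slc6a5/Gad2 neurons that also held Slc17a6 were left out.

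Calcium-binding proteins buffer the calcium of rapid firing, and peptides act as cotransmitters. Of 19 tested, 3 were higher in Slc17a6-only neurons, which is 15.8% against 6.82% of all tested genes. None was higher in Slc6a5/Gad2 neurons, against 8.68%, and the list's median was 0.21. Chga, which codes for the dense-core vesicle protein chromogranin A, was present in 23 of 26 neurons at a median of 219.5 TPM and in 11 of 17 at a median of 12 TPM, a difference of 2.47 with SDs of 3.40 and 3.77. The ranges were 0 to 971 and 0 to 693 TPM and thus overlapped. Calm3 (1.15), a calmodulin gene, was present in 24 of 26 and 14 of 17 neurons, with medians of 293 and 326 TPM, in the opposite order to the means of log2 values. Cck (1.10), which codes for cholecystokinin, was present in 16 of 26 and 8 of 17. Pvalb, the parvalbumin gene, was present in all 43 and differed by 0.05.

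Voltage-gated channels for sodium and calcium divided by type. Of 19 tested, 3 were higher in Slc17a6-only neurons and 4 in Slc6a5/Gad2 neurons (15.8% and 21.1%, against 6.82% and 8.68% of all tested genes), and 11 of the 19 lay in the first 5000 rows. Cacna1b, which codes for the N-type calcium channel of presynaptic terminals, was present in 6 of 26 Slc17a6-only neurons at 83 to 1950 TPM and in 11 of 17 Slc6a5/Gad2 neurons at 8 to 828 TPM. Its shares were 23.1% (interval 8.97 to 43.6) and 64.7% (interval 38.3 to 85.8), and its difference was -2.60, and -1.66 within Onset neurons. Cacna1e (R-type, -2.47), Cacna1d (L-type, -1.73) and the sodium leak channel gene Nalcn (-1.66) were on the same side, in 4, 4 and 2 of 26 and in 6, 8 and 5 of 17 neurons. Cacna1d came to -0.70 within Onset neurons. Without the Slc6a5/Gad2 neurons that also held Slc17a6, Cacna1e came to -0.54 and Nalcn to -0.63, below the rule, but Cacna1d to -3.31.

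The 3 on the other side included Cacna1g (1.56), which codes for a T-type calcium channel, and Cacna2d2 (1.00), an auxiliary calcium channel subunit. Cacna1g was present in 10 of 26 and 3 of 17 neurons. Cacna2d2 was present in 8 of 26 and 4 of 17 neurons. Within Onset neurons they differed by 0.95 and 0.96.

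Potassium channels set the input resistance and the firing of pLSOs. None of the 20 tested passed the size rule, against 6.82% and 8.68% of all tested genes in the 2 directions. The 2 largest differences were 0.96 for Dpp6, an auxiliary subunit of A-type channels, and -0.88 for Kcna1, the gene of a low-threshold channel typical of Onset neurons. Dpp6 was present in 17 of 26 and 6 of 17 neurons, and Kcna1 in 20 of 26 and 15 of 17. The list's median was -0.03, close to that of all genes, and 2 of its 20 genes lay in the first 5000 rows of the table (10% against 34.7% of all tested genes). In later rows only 3.25% and 3.96% of tested genes passed the rule, so finding none among 20 says little about these channels.

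**Figure D4:**
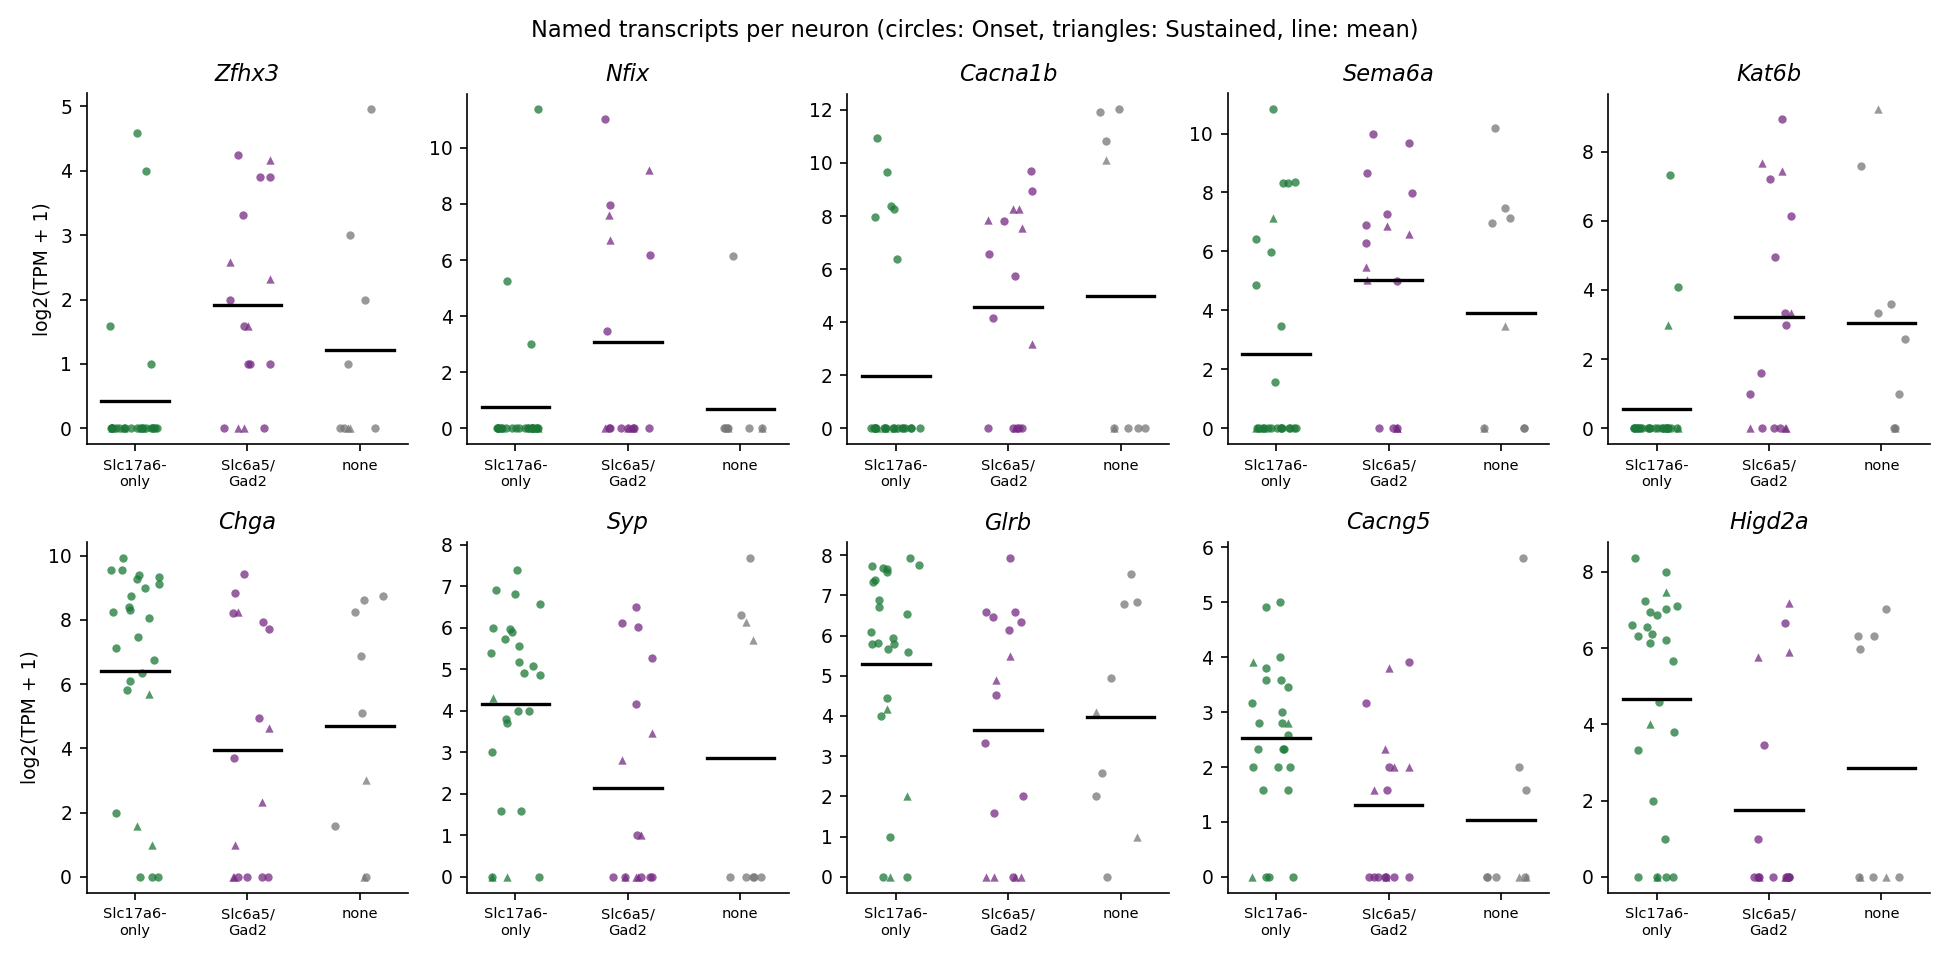
Transcript level as log2(TPM + 1) on the vertical axes of 10 named genes in each Slc17a6-only, Slc6a5/Gad2 and none-of-the-3 pLSO, with circles for Onset, triangles for Sustained neurons and a line for the mean. Zfhx3 is present in 4 of 26 and 13 of 17 neurons, Higd2a in 21 and 6, and the ranges of the sets overlap in each panel.

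Glycine, GABA and glutamate receptors receive the inputs of pLSOs. Of 14 glycine and GABA receptor genes, 2 (14.3% against 6.82% of all tested genes) were higher in Slc17a6-only neurons. Glrb, the beta subunit that anchors glycine receptors at synapses, was present in 23 of 26 neurons at a median of 57.5 TPM and in 12 of 17 at a median of 22 TPM, a difference of 1.65 with SDs of 2.60 and 2.92. Gabrb2 (1.52), a GABA receptor subunit, was present in 7 and 1 neurons. The ligand-binding subunit gene Glra1 was present in 17 of 26 and 12 of 17 neurons and differed by -0.12.

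Of 15 glutamate receptor genes, Cacng5 (1.21) was higher in Slc17a6-only neurons, and Grm3 (-1.62) and Cacng2 (-1.13) were higher in Slc6a5/Gad2 neurons. These shares, 6.67% and 13.3%, were near the 6.82% and 8.68% of all tested genes. Cacng5 and Cacng2 code for auxiliary subunits of AMPA receptors, and Grm3 for a metabotropic receptor. Cacng5 was present in 22 of 26 neurons (84.6%, interval 65.1 to 95.6) at up to 31 TPM and in 9 of 17 (52.9%, interval 27.8 to 77) at up to 14 TPM. Grm3 was present in 4 and 5 neurons and came to 0.10 within Onset neurons.

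Axon guidance genes, which steer crossed and uncrossed axons, passed the rule in 3 of 16 cases, 1 higher in Slc17a6-only (6.25%) and 2 in Slc6a5/Gad2 neurons (12.5%), near the 6.82% and 8.68% of all tested genes. Sema6a (-2.53), a transmembrane semaphorin, was present in 10 of 26 and 12 of 17 neurons, and the difference within Onset neurons was -3.09. Without the Slc6a5/Gad2 neurons that also held Slc17a6, Sema6a came to -0.20, below the rule. Nrp2 (-1.14), a semaphorin coreceptor, was present in 2 and 5 neurons. Efnb2 (1.05), an ephrin, was present in 6 and 2 neurons, and its mean was no higher in the Slc17a6-only set (321 against 374 TPM), since 1 Slc6a5/Gad2 neuron held 5254 TPM. The list's median was 0.06.

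Of the 8 pLSO markers, Lpgat1 (1.41), an enzyme of phospholipid metabolism, and Cacng5 were higher in Slc17a6-only neurons (25% against 6.82% of all tested genes), and the list's median was 0.72. Lpgat1 came to 0.45 within Onset neurons. The summed level of the 8 markers ranged from 80 to 1528 TPM in Slc17a6-only and from 53 to 1131 TPM in Slc6a5/Gad2 neurons, against 0 to 148 TPM in LOCs. Of the 7 LOC markers, 5 were at 0 TPM in all Slc17a6-only and 4 in all Slc6a5/Gad2 neurons. Only Calca could be tested (-0.21), and it was present in 5 neurons of each set. The summed LOC markers reached 58 and 31 TPM in the sets, compared with 20 to 4761 TPM in LOCs.

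Glial transcripts were present in both sets. Of 4 astrocyte markers tested, Slc1a3 (-1.72) and Aqp4 (-1.24) were higher in Slc6a5/Gad2 neurons (50% against 8.68% of all tested genes). They were present in 4 and 5 of 26 and in 7 and 5 of 17. Within Onset neurons, they differed by -0.98 and -0.63. Of the other 2, Gfap differed by -0.52 and Slc1a2 by 0.91, or 2.03 within Onset neurons, and all 4 lay in the first 5000 rows of the table. The summed astrocyte markers had medians of 23 and 36 TPM and ranged up to 2556 and 1815 TPM, with 1 of the 8 markers at 0 in all neurons of each set. None of 6 oligodendrocyte, 6 microglia or 1 endothelial markers tested passed the size rule. Of all tested genes, 6.82% and 8.68% passed it in the 2 directions, so lists this short say little by holding none. The medians of the summed oligodendrocyte markers were 453.5 and 163 TPM, and those of the microglia markers 114 and 154 TPM. Their part in the differences above was not tested.

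Of 13 activity and stress genes, Fosb (1.93) and Fos (1.53), which are induced by firing, were higher in Slc17a6-only neurons, and Hspa5 (-1.13) and Atf3 (-1.02), which mark protein stress, were higher in Slc6a5/Gad2 neurons (15.4% each, against 6.82% and 8.68% of all tested genes). Fos was present in 23 of 26 and 13 of 17 neurons, and its difference was 0.64 within Onset neurons. There Fosb came to 1.36, but Hspa5 to -0.87 and Atf3 to -0.54, below the rule. Atf3 was present in 1 and 4 neurons. Without the Slc6a5/Gad2 neurons that also held Slc17a6, Fos came to -0.02. None of 5 sex-linked genes tested passed the rule, against the same 6.82% and 8.68% of all tested genes.

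Outside the lists, the genes with the largest difference in share were taken in each direction. The intervals below do not allow for this choice of extremes. On the Slc6a5/Gad2 side, Kat6b, a histone acetyltransferase, was present in 3 of 26 neurons (11.5%, interval 2.45 to 30.2) and 11 of 17 (64.7%, interval 38.3 to 85.8), but also in 6 of the 9 pLSOs with none of the 3 genes. Trim9, a ubiquitin ligase of axons, was present in 2 and 9 neurons and in none of those 9. Gpm6a, a neuronal membrane glycoprotein, was present in 7 and 13, the RNA-binding gene Zcchc17 in 8 and 13, Pcdh7, a protocadherin, in 7 and 12, and Epb41, a membrane skeleton gene, in 5 and 11. Cmas and Leng8 were present in 2 and 9 neurons each, and Apba2, a synaptic adaptor, and Trim39 in 1 and 8 each.

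On the Slc17a6-only side, Gas8, a gene of ciliary motility, was present in 11 of 26 neurons (42.3%, interval 23.4 to 63.1) at 1 to 43 TPM and in none of the 17, which allows up to 17.6%. Higd2a, a mitochondrial gene, was present in 21 (80.8%, interval 60.6 to 93.4) and 6 neurons (35.3%, interval 14.2 to 61.7), a difference of 2.91. Impdh1, an enzyme of guanine nucleotide synthesis, was present in 14 and 1, and the mitochondrial ribosome gene Mrpl14 in 13 and 1. Cnih3, an AMPA receptor auxiliary gene, and Tmem11 were each present in 13 and 2 neurons (Cnih3 in no LOC or control), and the chaperone gene Dnaja2 in 16 and 4. The chloride transporter gene Clcn3, the prostaglandin synthase gene Ptgds and the mitochondrial carrier gene Slc25a39 were each present in 19 and 6.

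The largest differences of mean log2(TPM + 1) named a partly different set. All 20 of these genes lay in the first 1986 of the 38887 rows, and the part of the changing scale in their rank was not tested. On the Slc17a6-only side these were Impdh1 (3.91), Dazap2 (3.55), Rabac1 (3.37), Ptgds (3.22), Slc25a39 (3.16), Sqstm1 (3.03), Atp6v1b2 (3.00), Sdf2 (2.97), Clcn4 (2.94) and Zdhhc4 (2.93). Ptgds came to 0.25 with Onset and Sustained neurons weighted equally. Atp6v1b2 codes for a subunit of the proton pump of vesicles and lysosomes and was present in 23 of 26 and 13 of 17 neurons. Zdhhc4, a palmitoyltransferase gene, was present in 7 of 26 at 16 to 9953 TPM and in none of the 17. The mean of Impdh1 was no lower in Slc6a5/Gad2 neurons (673 against 658 TPM), since its 1 positive neuron held 11436 TPM.

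On the Slc6a5/Gad2 side the 10 were Cers4 (-4.17), Wdr1 (-4.01), Celf1 (-3.86), Srpk1 (-3.83), Ugp2 (-3.53), Poldip2 (-3.45), Faf1 (-3.20), Rbm25 (-3.13), Braf (-3.03) and Sgta (-2.98). Cers4, the largest, came to -0.02 in neurons between the quartiles of detected genes. Celf1, Srpk1 and Rbm25 act in RNA splicing. Celf1 was present in 9 of 26 and 12 of 17 neurons and in none of the 9 pLSOs without the 3 genes. Wdr1, an actin disassembly gene, was present in 14 of 26 and 16 of 17 neurons, at medians of 9.5 and 1311 TPM.

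**Figure D5:**
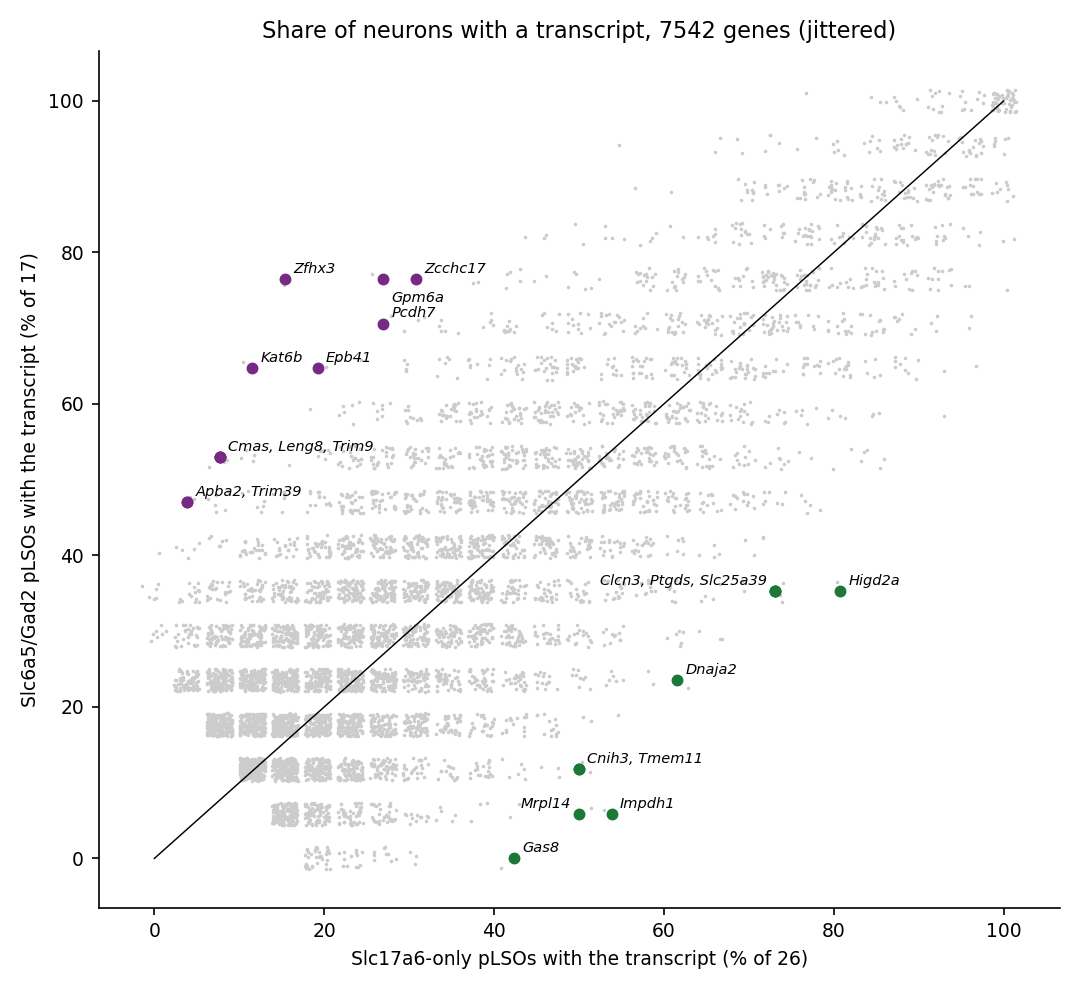
Share of the 26 Slc17a6-only pLSOs (horizontal axis, %) and of the 17 Slc6a5/Gad2 pLSOs (vertical axis, %) that held each of 7542 genes, with a line of equal shares and jitter on the grey points. Zfhx3 lies at 15.4% and 76.5%, Higd2a at 80.8% and 35.3%, and Gas8 at 42.3% and 0%.

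The Slc6a5/Gad2 neurons were also divided by whether they held Slc17a6. For Slc38a1, the 10 neurons with Slc17a6 and Slc6a5 or Gad2 held it in 9 cases and the 7 neurons without Slc17a6 in 5. For Trim9 these counts were 6 and 3, for Kat6b 7 and 4, and for Sema6a 9 and 3. Input resistance had medians of 53.6 MΩ in the 10 and 50.3 MΩ in the 7. The sEPSC decay time constant had medians of 0.845 ms (n = 8) and 0.72 ms (n = 7), compared with 0.73 ms in Slc17a6-only neurons. The 9 pLSOs with none of the 3 transcripts had medians of 54 MΩ and 0.73 ms, and 2250 detected genes.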

How the data were processed

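Cytoplasm of single patch-clamped LSO neurons of C57BL/6J mice was sequenced by a modified Smart-seq2 protocol. Per the submitters' processing notes, the authors used FastQC, Trim Galore 0.4.2, STAR on mm10, Picard 1.115 and featureCounts. The score values are TPM that the authors rounded to whole numbers and deposited for 38887 genes, of which 37570 had a symbol in Gencode vM21 (GRCm38). Each library summed to 999773 to 1000026 TPM. Read counts were not used here, and the depth of each value is therefore not known. The first 5000 rows of the table held 93.3% to 95.3% of the TPM of a neuron, and the smallest values fell along the table, so it is in doubt whether the TPM used each gene's own length. The 1 TPM threshold, the pseudocount and the size rule are therefore unequal between genes. Electrophysiological values came from the sample labels.

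The rule was applied to all Onset and Sustained neurons except 4. These 4 held 0 or 1 TPM of Spp1. Of them, 2 had 653 and 1002 detected genes, 1 held 1887 TPM of Calca, and 1 had 2104 detected genes and 1 TPM of Calca. Low Spp1 alone did not set the 4 apart. A kept Slc17a6-only neuron and a kept neuron with none of the 3 transcripts also held 0 TPM of Spp1. The members and gene lists were chosen with earlier results of these data known. Because no animals are named and the sets were chosen on transcripts, no test, standard error or p-value was computed. Shares carry exact binomial 95% intervals, and 0 of n the limit of 3 over n.

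Genes named are the 3 of the rule and the transmitter list, the genes of each other list past the size rule (or the 2 largest differences of a list without any), and outside the lists the 10 largest differences in share and in mean log2(TPM + 1), pseudocount 1, in each direction. Spp1, Chat, Ucn, Pvalb, Glra1, Rorb, Gfap and Slc1a2 were named in addition after their values were seen, as was the division by gene length. Some genes of the lists are counted but not reported here by name. The difference measure was tested on simulated data. No 2 libraries were identical. Calculations ran in Python 3.11.15 with SciPy 1.17.1, NumPy 2.4.6 and pandas 2.3.3, and plots in matplotlib 3.10.9.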

Additional observations from a re-analysis of the deposited data

Results flagged for a closer look

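Some single values lay far from the rest of a small group of 4 to 10 samples by Dixon's criterion. Over 35 combinations of group and measure examined, 6 did so, and chance gives about 1 in 20. Among the 6 Sustained Slc6a5/Gad2 neurons, 1 had an action potential latency of 23.8 ms (next 7 ms), and another an sIPSC rise time of 1.72 ms (next 0.53 ms). Among the 9 pLSOs with none of the 3 transcripts, 1 had a capacitance of 0.161 nF (next 0.098 nF), and another a latency of 23.9 ms (next 9.5 ms) together with an sIPSC decay time constant of 2.94 ms (next 2.07 ms). Among the 10 negative controls, 1 had 3104 detected genes (next 1271).

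Of the 4 pLSO libraries left out of the sets, 2 held inhibitory transcripts above all negative controls. In 1 of them, labelled Onset, Slc6a5 was at 98 TPM and Gad2 at 207 TPM, with controls at no more than 1 and 28 TPM. In another, labelled Sustained, Gad2 was at 106 TPM.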

How the results depend on the processing

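No paired analysis was possible because no comparison rests on a test and no label names an animal. The number of Slc6a5/Gad2 neurons fell to 6 when the rule genes had to reach 10 TPM. The counts of genes past the size rule moved by over 1.5 times as follows. Higher in Slc17a6-only, they were 900 (14.0% of 6434 tested genes) without the Slc6a5/Gad2 neurons that also held Slc17a6. They were 859 (13.4% of 6399) in Onset neurons only and 187 (2.48% of 7542) with a pseudocount of 10. In neurons with a middling number of detected genes (between the quartiles, 15 and 6 neurons) they were 873 (20.3% of 4295), with 18.1% on the other side. Higher in Slc6a5/Gad2, they were 1256 (18.6% of 6742) with the rule at 10 TPM and 1305 (19.7% of 6639) with Slc6a5 alone. They were 1168 (15.5% of 7542) with both firing patterns weighted equally and 203 (2.69% of 7542) with a pseudocount of 10. The value of median detected genes, Slc17a6-only, came to 1684.5 where a gene counted from 10 TPM. None of the 128 electrophysiological differences under an alternative moved by over 1 SD. The largest difference of means between the sets was 0.72 SDs, so a difference could vanish or turn within this bound. The median sEPSC decay time constants, 0.73 and 0.83 ms, came to 0.73 and 0.72 ms without the Slc6a5/Gad2 neurons that also held Slc17a6.

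Within Onset neurons, 54 of the 75 named genes past the size rule were still past it, and without the neuron with most genes 69. Of the 75, 60 kept their direction and 18 stayed past the rule under all 12 alternatives, of which leaving out the neuron with most genes was chosen after seeing the data. The alternatives reuse the same neurons, and the 75 were picked for passing the rule in them. Staying past it is therefore no independent support, and the share over all tested genes was not computed. The 18 were Impdh1, Higd2a, Slc25a39, Sqstm1, Atp6v1b2, Clcn4 and Zdhhc4, and on the other side Nfix, Cacna1b, Zcchc17, Trim9, Wdr1, Celf1, Srpk1, Poldip2, Rbm25, Braf and Sgta. All but Nfix and Cacna1b had been named as the largest differences outside the lists. The direction turned for Cacng2 (0.033), Hspa5 (0.15), Clcn3 (-0.72), Ugp2 (1.20) and Faf1 (0.066) with the rule at 10 TPM. It turned for Syn2 (-0.16) and Fos (-0.017) without neurons that held Slc17a6, for Dazap2 (-0.24) with Slc6a5 alone and for Grm3 (0.39) with Gad2 alone. It turned for Slc1a1 (1.04) and Grm3 (0.10) in Onset neurons and for Efnb2 (-0.15) with equal weights. Between the quartiles of detected genes it turned for Slc1a1 (1.13), Evx2 (0.54), Cacna1d (0.048), Grm3 (0.19), Fosb (-1.89) and Cnih3 (-0.012). The cause was not tested.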
